A study of Mus musculus with 2 samples.

Results

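The H3K4me3 profiles of lung ILC2s were searched for coding-gene starts that were marked by a peak in offspring of asthmatic mothers and by no overlapping peak in offspring of control mothers. The members are the autosomal peaks of the asthmatic-mother list that lay within 1000 bp of the start of a GENCODE vM21 protein-coding transcript and shared not a single base with a peak of the control list. They were chosen by the peak calls themselves, so their presence in one list is the selection and not a result. The rule found 335 peaks among 9719 autosomal start peaks of the asthmatic-mother list, which is 3.45% of them (95% exact binomial interval 3.09 to 3.83%). That list held 51610 peaks in all, and the control list held 42126. Among all autosomal peaks of the asthmatic-mother list, 38.2% (17919 of 46927) overlapped no control peak. In the opposite direction, 28.6% of the autosomal start peaks of the control list (3484 of 12198) overlapped no peak of the asthmatic-mother list.

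Both libraries came from ILC2s of the lungs of mice labelled 8 weeks old. Control mothers had been sensitised with PBS in alum and asthmatic mothers with ovalbumin (OVA) in alum, both groups were mated to untreated males, and PBS or OVA was then given intranasally through gestation. Strain, sex and the number of animals pooled were not in the labels. There was 1 library per group, so no difference between the groups has a replicate check, no p-value is given, and every interval covers counting error only. An effect of the mothers' asthma cannot be told apart from a difference between the pair of libraries.

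H3K4me3 is the trimethylated form of lysine 4 of histone H3. It sits on the nucleosomes that flank the starts of active genes, is written by the SET1 and MLL (KMT2) complexes, and covers most CpG islands, the CpG-rich stretches at which many mammalian genes begin. ILC2s are tissue-resident lymphocytes that answer epithelial IL-33 through its receptor ST2, the product of Il1rl1, with IL-5 and IL-13. The lists were checked against 14 genes that define these cells. A start peak was listed for 11 of them in the control list and for 7 in the asthmatic-mother list, where Gata3, Il2ra, Il5 and Il7r had none, and Icos, Il13 and Klrg1 had none in either list. Among 70 markers of other T cells, B cells, myeloid, epithelial, endothelial and stromal cells, 5 had a start peak in the control list (Zap70, Cdh1, Epcam, Foxj1 and Kdr) and 1 in the asthmatic-mother list (Foxp3). Foxp3 lies on the X chromosome, which the rule left out. None of the other markers had a start peak in that list, so none of the 70 could be a member.

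The sequences under the members differed widely, and 3 sets of examples show how. All are GRCm38 (mm10) reference sequence under a member peak, on the strand of the gene it was assigned to, without bases annotated as untranslated exon. They were picked after their values were seen. The first set shows tandem-repeat members far from any control peak, and the capitals mark the longest tandem run, a stretch in which each base repeats the one a fixed unit earlier. The peak upstream of Pik3r6 lay at chr11:68502250-68502470 and carried 29 units of 6 bases. That upstream of Asb2 at chr12:103356841-103357043 carried the same 6-base unit 27.2 times. The Adamtsl1 peak, of which chr4:86198548-86198847 is shown, carried 9.33 units of 18 bases.
Pik3r6: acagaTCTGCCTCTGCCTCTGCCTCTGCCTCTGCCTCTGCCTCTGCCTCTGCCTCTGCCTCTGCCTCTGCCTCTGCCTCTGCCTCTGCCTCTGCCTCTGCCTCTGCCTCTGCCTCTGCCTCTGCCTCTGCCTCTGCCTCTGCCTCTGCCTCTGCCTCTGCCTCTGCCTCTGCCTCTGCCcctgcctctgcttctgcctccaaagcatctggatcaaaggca
Asb2: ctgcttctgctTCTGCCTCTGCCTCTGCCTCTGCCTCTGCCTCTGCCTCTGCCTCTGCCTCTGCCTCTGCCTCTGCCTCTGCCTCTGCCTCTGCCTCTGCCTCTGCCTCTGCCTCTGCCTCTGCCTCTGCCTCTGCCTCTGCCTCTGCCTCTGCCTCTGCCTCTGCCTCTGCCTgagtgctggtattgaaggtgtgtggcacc
Adamtsl1: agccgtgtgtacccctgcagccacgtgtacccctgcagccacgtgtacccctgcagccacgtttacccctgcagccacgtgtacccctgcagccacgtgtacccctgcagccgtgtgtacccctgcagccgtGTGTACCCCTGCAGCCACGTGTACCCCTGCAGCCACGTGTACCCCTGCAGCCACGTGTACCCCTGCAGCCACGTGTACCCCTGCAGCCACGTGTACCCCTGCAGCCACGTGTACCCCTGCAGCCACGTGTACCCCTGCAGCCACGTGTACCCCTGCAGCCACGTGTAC
The second set shows repeat-masked members at named genes, with the capitals marking the longest run that the pair of peaks has in common. The Csf2rb peak (chr15:78324730-78324885) and the Ezh2 peak (chr6:47539813-47540097) shared a run of 26 bases on the same strand. Both were entirely repeat-masked.
Csf2rb: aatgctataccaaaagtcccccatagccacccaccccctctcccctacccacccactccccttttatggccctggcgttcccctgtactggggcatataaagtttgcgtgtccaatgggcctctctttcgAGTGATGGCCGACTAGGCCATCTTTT
Ezh2: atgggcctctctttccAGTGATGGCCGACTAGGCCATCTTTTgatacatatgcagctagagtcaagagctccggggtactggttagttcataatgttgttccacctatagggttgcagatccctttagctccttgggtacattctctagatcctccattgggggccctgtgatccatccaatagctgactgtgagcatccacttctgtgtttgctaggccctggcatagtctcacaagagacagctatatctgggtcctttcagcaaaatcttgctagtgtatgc
The third set shows single-copy members, with every CpG in capitals. Foxo3 (chr10:42276901-42277070), Tnfrsf11a (chr1:105780408-105780614) and Irf5 (chr6:29527552-29527758) lay beside a control peak. Cecr2 (chr6:120666638-120666901) and Src (chr2:157457169-157457324) lay far from one. Il1rl1 (chr1:40430407-40430568) was the only member at an ILC2-defining gene.
Foxo3: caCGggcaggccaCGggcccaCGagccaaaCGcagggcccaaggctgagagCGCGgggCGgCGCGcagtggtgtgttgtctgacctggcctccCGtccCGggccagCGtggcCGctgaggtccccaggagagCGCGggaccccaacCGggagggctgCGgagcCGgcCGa
Tnfrsf11a: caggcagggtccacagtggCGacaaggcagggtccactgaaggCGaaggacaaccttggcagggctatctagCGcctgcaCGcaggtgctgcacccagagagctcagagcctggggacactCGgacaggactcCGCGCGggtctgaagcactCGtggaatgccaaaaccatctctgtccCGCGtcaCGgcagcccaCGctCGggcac
Irf5: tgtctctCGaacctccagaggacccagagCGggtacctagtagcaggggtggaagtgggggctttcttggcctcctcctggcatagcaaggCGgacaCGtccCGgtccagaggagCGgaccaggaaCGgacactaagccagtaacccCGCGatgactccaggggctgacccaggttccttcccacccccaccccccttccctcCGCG
Cecr2: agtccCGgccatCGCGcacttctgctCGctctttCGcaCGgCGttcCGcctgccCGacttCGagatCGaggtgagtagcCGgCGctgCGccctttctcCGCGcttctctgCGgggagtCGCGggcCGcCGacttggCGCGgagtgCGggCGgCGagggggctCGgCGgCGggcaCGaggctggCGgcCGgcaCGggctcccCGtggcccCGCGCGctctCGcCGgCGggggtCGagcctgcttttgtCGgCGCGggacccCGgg
Src: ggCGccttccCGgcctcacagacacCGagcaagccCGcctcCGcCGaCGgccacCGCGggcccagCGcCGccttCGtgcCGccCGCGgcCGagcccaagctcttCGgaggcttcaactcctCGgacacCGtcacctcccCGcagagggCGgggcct
Il1rl1: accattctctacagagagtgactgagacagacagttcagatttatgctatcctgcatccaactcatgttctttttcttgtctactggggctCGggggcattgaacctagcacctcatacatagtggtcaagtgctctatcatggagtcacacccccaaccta
The number of CpGs was 19 in the Foxo3 stretch, 14 in Tnfrsf11a, 11 in Irf5, 45 in Cecr2, 21 in Src and 1 in Il1rl1.

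The members were at the starts of 361 genes: 305 peaks lay at 1 gene and 30 at 2 or more. For 197 of these genes, carried by 180 peaks, another start peak of the asthmatic-mother list did overlap the control list, so that the gene was marked in both. For 54 genes (51 peaks) the control list had a start peak of its own that did not overlap. The remaining 110 genes (104 peaks) had no start peak in the control list, which is 1.23% of the 8942 autosomal genes with a start peak in the asthmatic-mother list. That number was 174 when only the 10000 peaks of highest −log10 p, the strength the peak caller gave each summit, were kept in each list, 189 with starts up to 2000 bp away and 70 when a −log10 q (the same after adjustment) of at least 5 was asked of the asthmatic-mother list. The share of 3.45% likewise became 10.6% with the 10000 peaks, 5.24% when an overlap of 50% of the peak was asked, and 1.44% when a control peak within 1000 bp counted as shared. A peak at genes of different classes is counted in the class nearest to a shared start. With the main setting, most members thus marked a second position at a gene that the control list also held. That depended on the setting. Keeping the 10000 peaks gave 189 members and 174 genes without a control start peak. Counting a control peak within 1000 bp as shared gave 140 members and 105 such genes. The 189 had a median −log10 q of 12.3, and only 19 of the 335 members reached 10, so most of the 189 were other peaks.

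Members were weak peaks. Strength is given as the −log10 q of the summit, the p-value of the pile-up against the caller's background after adjustment within the library, and the fold is the summit over that background. Median −log10 q was 5.39 in members (95% interval of the median 5.17 to 5.74) and 7.73 in the 9384 start peaks that overlapped the control list. Median fold was 4.93 against 5.85, and median width 182 bp against 328 bp. Fragments at the summit, solved from fold and p under a Poisson background, had a median of 14 in members and 16 in shared start peaks. The narrowest width in the asthmatic-mother list was 156 bp, against 190 bp in the control list, and 79 of 335 members were at that limit. With the 10000 peaks of highest −log10 p kept in each list, medians were 12.3 for −log10 q and 354 bp for width in 189 members. Most of those 189 were not among the 335. These values come from the same calls as the rule and are a description.

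When the 9719 start peaks were put in 10 equal groups by −log10 q, the share without a control overlap was 0.926% in the strongest group (9 of 972 peaks, at 12.4 or more) and 8.96% in the weakest (87 of 971, between 2.17 and 4.38). Width fell with −log10 q, from a median of 414 bp in the strongest group to 211 bp in the weakest, and a narrower peak has less room to overlap. These shares are a description too. A −log10 q of 10 or more was reached by 19 members and by 2279 shared start peaks. Among those 19 strong members, 14 had a summit whose 75 bases occur elsewhere in the genome, 9 carried a tandem run of at least 40 bases, and 6 lay within 1000 bp of a control peak. Of the 5 with a single-copy summit, 1 was CpG-rich, the peak at Sos2, a Ras exchange factor. A −log10 q under 5 was seen in 127 members.

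**Figure D1:**
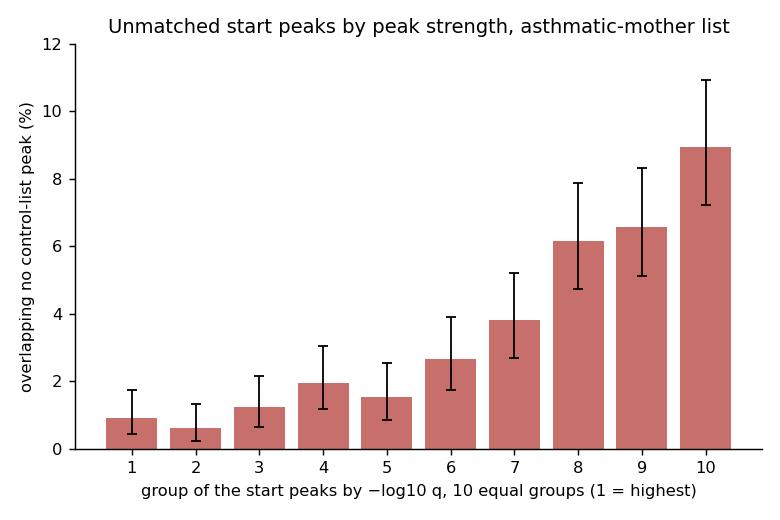
Share of start peaks of the asthmatic-mother list that overlapped no control-list peak (vertical axis, %) in 10 equal groups of the 9719 start peaks by −log10 q (horizontal axis, 1 is the highest). Bars are shares and error lines 95% exact binomial intervals; the share was 0.926% in the first group and 8.96% in the last.

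The distance from each member to the nearest control peak, measured edge to edge, differed by class of gene. It was 100 bp or less for 40 members, 500 bp or less for 172 and 1000 bp or less for 195 (58.2%, interval 52.7 to 63.5%). Another 22 lay farther than that and up to 5000 bp away, 118 more than 5000 bp and 30 more than 50000 bp. A control peak lay within 1000 bp of 151 of 180 members at genes with a shared start peak, of 41 of 51 at genes with a control start peak elsewhere, and of 3 of 104 at genes with none. The classes are defined by whether the same gene has a control start peak, so all 3 values follow largely from that definition. The median distance was 221 bp for the 195 near members and 21566 bp for the 140 far ones, up to 198330 bp at Adamtsl1, which encodes a secreted ADAMTS-like protein.

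**Figure D2:**
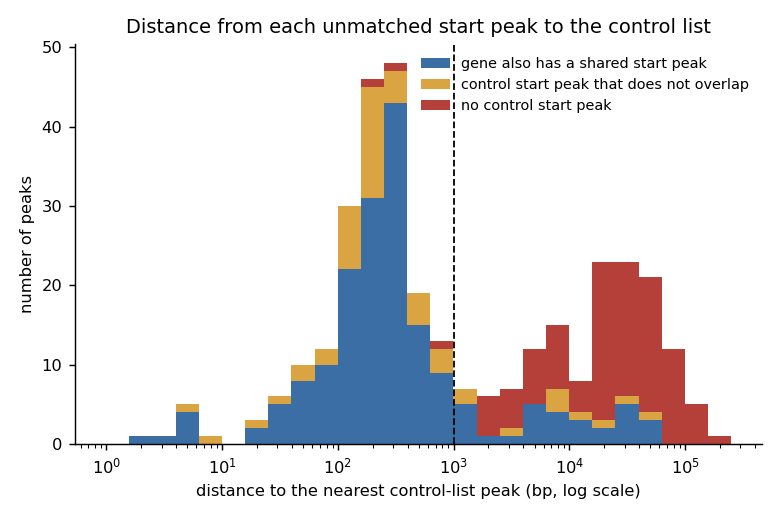
Distance from each of the 335 members to the nearest control-list peak (horizontal axis, bp, log scale) against the number of peaks (vertical axis), stacked by class of gene. The dashed line is at 1000 bp; 195 members lie to its left, most at genes that also had a shared start peak, and 140 to its right, most at genes with no control start peak.

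Near members sat beside wider control peaks of higher listed −log10 q. In 183 of 195 cases the nearest control peak was wider than the member, in 168 it had the higher −log10 q within its own library, and in 132 it overlapped another peak of the asthmatic-mother list. Those control peaks had a median width of 451 bp and a median −log10 q of 10.3, against 178 bp and 5.29 for the near members. No peak of the control list was narrower than 190 bp, so the width count was largely fixed by that limit. The −log10 q values were set against each other across libraries of unknown depth. The member lay on the upstream side, by the strand of its gene, in 115 of 195. Kmt2a, a histone H3 lysine 4 methyltransferase, had its member (fold 5.04, −log10 q 6.27, 16 fragments) 218 bp from a control peak of −log10 q 7.91.

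The rule bears on where members can lie, since shared peaks fill the region around the start and a member may not touch a control peak, so positions are given as a description. Summits lay upstream of the nearest coding start in 49.9% of members (interval 44.4 to 55.3%) and in 17.2% of shared start peaks (16.5 to 18.0%). The share was 52.8% among the 195 members near a control peak and 45.7% among the 140 far ones. The median position was 3 bp downstream in members and 153 bp downstream in shared peaks, and the median distance irrespective of side was 308 and 183 bp. A summit within 200 bp of the start was seen in 35.5% and 54.6%. By annotation, 135 member summits were intronic, 81 between genes, 65 in untranslated exons, 32 in coding exons and 22 in noncoding exons. The share between genes was 24.2% in members and 5.19% in shared start peaks, while the intronic shares, 40.3% and 37.9%, had overlapping intervals (35.0 to 45.8% and 36.9 to 38.9%).

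**Figure D3:**
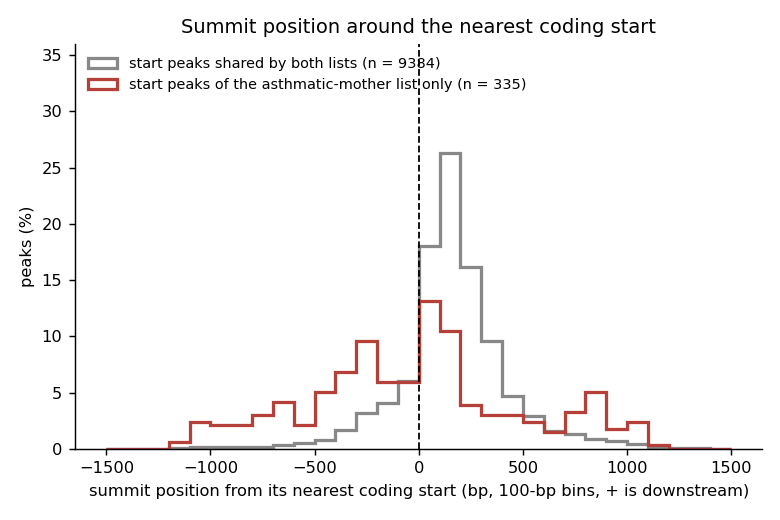
Position of peak summits relative to their nearest coding start (horizontal axis, bp in 100-bp bins, positive is downstream) as a share of each set (vertical axis, %), for the 335 members and the 9384 start peaks shared by both lists. Shared summits gather just downstream of the start, with a median of 153 bp, and member summits spread to both sides, with a median of 3 bp.

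The sequence under the members was not used by the rule. In windows of 300 bases at the summit, the observed over expected CpG ratio had a median of 0.670 in members (0.619 to 0.723) and 0.824 in shared start peaks (0.819 to 0.829). A ratio of 0.6 or more was found in 56.4% and 86.4%. The GC content had medians of 60.7% and 68.7%. Near and far members differed in the same measure, with median ratios of 0.749 (0.709 to 0.804) and 0.466 (0.324 to 0.581). In an alternative, only the 10000 peaks of highest −log10 p in each list were kept. The median was then 0.820 in 189 peaks without an overlap (0.772 to 0.848) and 0.840 in 1601 shared start peaks (0.830 to 0.851). These intervals overlap. The 189 had a median −log10 q of 12.3, and only 19 of the 335 members reached 10, so most of the 189 were other peaks. That setting shortens the lists and drops weak peaks together, and the part of each was not tested.

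**Figure D4:**
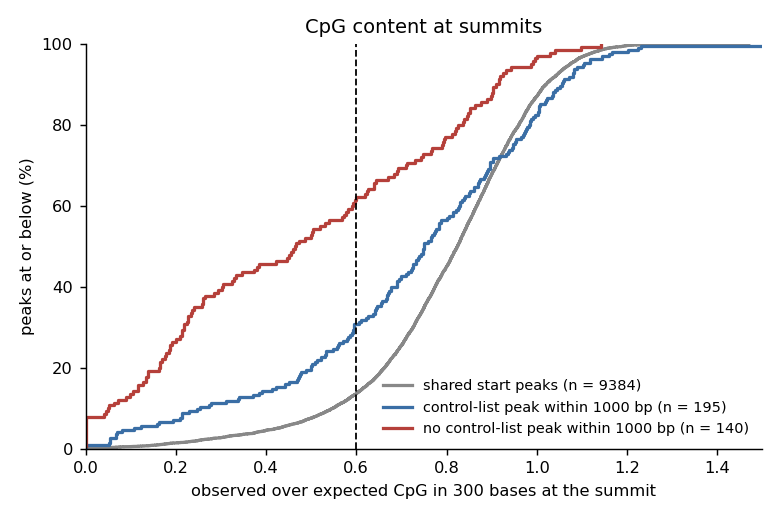
Cumulative share of peaks (vertical axis, %) by observed over expected CpG in 300 bases at the summit (horizontal axis, ratio without unit), for shared start peaks, near members and far members. The dashed line is at 0.6; 13.6% of shared start peaks, 30.8% of near members and 61.4% of far members lie below it.

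Repeats were frequent under the far members. The 75 bases at the summit had at least 1 exact copy elsewhere in the reference chromosomes in 79 of 335 members (23.6%, 19.1 to 28.5%) and in 269 of 9384 shared start peaks (2.87%, 2.54 to 3.22%). Among far members the share was 42.9% (60 of 140), and among near members 9.74% (19 of 195). Windows that were mostly repeat-masked made up 42.1% of far members, 12.3% of near members and 1.47% of shared start peaks. A tandem run of at least 40 bases was present in 31 members (9.25%, 6.37 to 12.9%) and in 107 shared start peaks (1.14%, 0.935 to 1.38%). The start peaks that were listed in the control list alone did not have this composition. In those 3484 peaks, copied summits made up 1.52% (1.14 to 1.99%), tandem runs 1.44% (1.07 to 1.89%) and mostly masked windows 1.09%, and the median CpG ratio was 0.749. The sets were unlike in other ways too. Median −log10 q was 7.47 and median width 301.5 bp in the control-only peaks, against 5.39 and 182 bp in members. Whether reads that match several places were kept is not given in the sources used here, and its part in the copied members was not tested.

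The tandem members with the longest runs were at Snapc1 (238 bases, a unit of 24), Pglyrp2 (203 bases, 8), Pik3r6 (174 bases, 6), Adamtsl1 (168 bases, 18) and Asb2 (163 bases, 6) within their 300-base windows. Ltf, which encodes lactoferrin, also carried a 6-base unit, over 136 bases. The summits at Pik3r6, Asb2 and Ltf had 16153, 16100 and 15929 exact copies, where overlapping matches within 1 array are counted separately. Pik3r6, a regulatory subunit of PI3-kinase gamma in leukocytes, had the strongest member of all, at fold 13.0, −log10 q 27.5 and 33 fragments, 69434 bp from a control peak. Asb2, a substrate receptor of a ubiquitin ligase, and Plekha2, a phosphoinositide-binding adaptor, followed with the same fold of 10.5, −log10 q of 19.3 and 26 fragments.

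Short motifs were searched on both strands in the same windows. The GC box GGGCGG was found in 47.2% of members and 64.0% of shared start peaks. CCAAT was found in 26.6% and 15.1%, TATAAA in 6.57% and 1.32%, and the glucocorticoid receptor motif AGAACA in 12.2% and 7.43%. The GATA motif AGATAA was in 4.48% and 2.14%, and the RUNX motif TGTGGT in 13.7% and 8.83%. GGAAGT (ETS) was in 17.6% and 16.4%, and TGAGTCA or its reverse TGACTCA (AP-1) in 2.09% and 1.64%, with overlapping intervals for both. Member windows had a lower GC content (medians 60.7% and 68.7%) and more repeats, and the part of these in the shares was not tested. Presence of letters is not evidence of a bound factor.

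The promoters of the 110 genes without a control start peak, taken as 250 bases before to 50 after the 5′ end of the gene, had a median CpG ratio of 0.467 (0.422 to 0.589), and 44 of them (40.0%) reached 0.6. The corresponding median was 0.788 for the 8830 genes with a start peak in both lists, 0.687 for the 1925 marked in the control list alone and 0.235 for the 9890 marked in neither. Their promoters thus fell between those of genes marked in both lists and those of genes marked in neither. By summit rather than promoter, 35 of the 104 peaks had a copied summit, 22 were single-copy with a CpG ratio under 0.6, and 47 were single-copy and CpG-rich, 38 of the last with the summit within 300 bp of the start.

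Those 38 peaks had the form of a CpG-rich start, although the Fhad1 window also carried a tandem run of 52 bases and was 43% masked. Nrm, which encodes an inner nuclear membrane protein, had fold 6.22, −log10 q 9.12 and 19 fragments at chr17:35861380-35861541, with the summit at −2 bp from the start and the nearest control peak 6789 bp away. Tmem106a, a membrane protein, had fold 6.62 and −log10 q 8.65. Zic4, a zinc finger factor of the developing brain, had fold 5.93 and −log10 q 7.31, with a control peak 2168 bp away. The Anxa2 member (annexin A2, fold 5.07, −log10 q 5.17) covered chr9:69453750-69454062. Weaker examples were Cecr2, a subunit of a chromatin-remodelling complex (fold 4.68, −log10 q 4.38, 11 fragments), and Homer2, a postsynaptic scaffold (fold 3.90, −log10 q 2.89, 9 fragments). The others in this form included Cyb5r1, Gipc3, Cdkl3, Nek8 with Tlcd1, Phospho1, Mpp3, Nat9 with Tmem104, Ccdc40 with Tbc1d16, Cox16, Smagp, Csad with Zfp740, Abat, H2-Ke6, Kcng3, Carns1, Egfl7, Them7, Bbs7, Kcnd3, Nexn, Ccdc30, Kdf1, Fhad1, Cabp1, Gtf2ird1, Plekhg2, Aplp1, Rras, Peg12, Mfap3l, Ocel1 and Ankrd34b.

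Of the 15 strongest members at genes without a control start peak, Nrm and Tmem106a were of that form. After Pik3r6 came Myf6, a myogenic regulator of skeletal muscle (fold 8.57, −log10 q 13.6), on a 5-base unit repeated over 110 bases. Adamtsl1 followed (fold 8.18, −log10 q 12.6), then Ano3, a membrane scramblase of the anoctamin family (fold 7.79, −log10 q 11.5). Gm10358 (fold 7.52, −log10 q 11.5) was the widest member of all, at 981 bp and wholly masked. Pglyrp2, a peptidoglycan-cleaving amidase, had 2 members, at −log10 q 10.7 and 5.86. Scin, an actin-severing protein, and Olfr971, an odorant receptor, had the same fold of 7.40 and −log10 q of 10.6, with 260 and 3902 copies of the summit. Ces2h (−log10 q 10.4), a carboxylesterase gene, Lrrtm1 (9.59), Myh14 (9.59), Olfr822 (8.65) and Pde10a (8.65) completed the 15 with Nrm and Tmem106a. Ltf had the same fold (6.62) and −log10 q (8.65) as Olfr822, Pde10a and Tmem106a, so the 15 end within a tie. Nrm and Tmem106a were the only ones of the 15 with a CpG ratio over 0.6, at 0.768 and 0.744.

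Among 158 cytokines and their receptors by name, 45 had a start peak in the asthmatic-mother list and 61 in the control list, and 7 held a member, which is 4.43% beside 1.74% of all 20757 coding autosomal genes. Over genes with a start peak in the asthmatic-mother list, the shares were 15.6% and 4.04%. Il4i1 is in that count by its symbol only, since it encodes an amino-acid oxidase. The ligands were Tnf and Tnfsf10 (TRAIL), and the receptors were Csf2rb, Il1rl1, Tnfrsf11a (RANK) and Tnfrsf22. None of 60 chemokine and chemokine receptor genes held a member, but only 6 of them had a start peak in the asthmatic-mother list. Among 275 lectin-like and other immune surface genes there were 3, Clec2g, Ms4a6d and H2-Ke6, the last an enzyme gene of the MHC region. That is 1.09% beside 1.74% of all coding genes, but 8.82% of the 34 with a start peak in the asthmatic-mother list, beside 4.04%. No member fell on any of 79 histone genes, of which 63 had a start peak in that list.

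Tnf, which encodes the cytokine TNF, had no start peak in the control list. Its member covered 42 to 216 bp downstream of the start (chr17:35201791-35201965), in an untranslated exon, with fold 4.53, −log10 q 4.95 and 14 fragments. The nearest control peak was 2823 bp away, on the upstream side, with −log10 q 6.63. Csf2rb, the common beta chain of the IL-3, IL-5 and GM-CSF receptors, also had none. The summit of its member lay at −921 bp from the start (fold 5.46, −log10 q 6.00, 13 fragments), at the smallest width, on a summit with 94 copies, and 67704 bp from a control peak.

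Il1rl1, the IL-33 receptor gene whose product ST2 marks these cells, had a shared start peak and a second, weaker peak beside it. The shared peak of the asthmatic-mother list had −log10 q 6.00 and overlapped a control peak of 9.65. The member began 837 bp downstream of the first start, with fold 3.46, −log10 q 3.45 and 15 fragments, 195 bp from that control peak. The control list also held a second, weaker peak, 1703 to 1892 bp downstream (fold 2.99, −log10 q 4.12). Tnfrsf11a resembled Il1rl1 in having a single-copy member (fold 5.96, −log10 q 7.36) 106 bp from a control peak. Tnfsf10 (fold 3.79, −log10 q 4.42, 507 bp from a control peak) and Tnfrsf22 (fold 5.07, −log10 q 5.17, 7848 bp away) had copied summits.

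**Figure D5:**
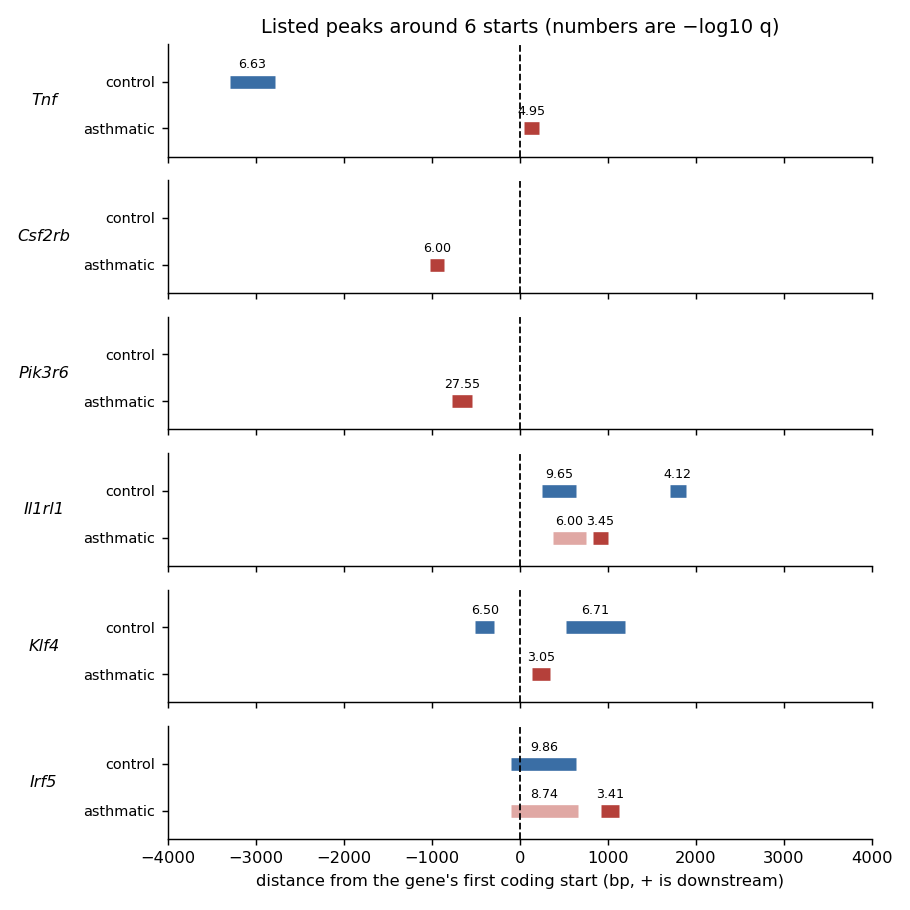
Listed peaks of both libraries around the first coding start of 6 genes (horizontal axis, bp from the start, positive is downstream), with control-list peaks in blue, members in dark red and other peaks of the asthmatic-mother list in pale red. Numbers are −log10 q; Tnf, Csf2rb and Pik3r6 have no control peak within 1000 bp, while Il1rl1, Klf4 and Irf5 do.

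Other immune genes were named after their values were seen. In the 25 immune genes so gathered, 8 had a shared start peak, 3 a control start peak elsewhere and 14 none. Over all members the last count was 110 of 361 genes. Their 24 peaks ranged from −log10 q 3.32 to 27.5, with 8 near a control peak and 12 with a copied summit, beside 195 and 79 of all 335 members. Since the genes were chosen by hand, these counts say nothing about immune genes as a group. Irf5, a transcription factor of inflammatory cytokine genes, had its member (fold 3.96, −log10 q 3.41) 283 bp from a control peak that covered the start. Flt3l, the ligand of FLT3, had one 176 bp from a control peak (fold 3.90, −log10 q 3.32). Icam1, the adhesion ligand of LFA-1, had no control start peak and a single-copy member 239 bp downstream of the start (fold 4.39, −log10 q 4.00, 11 fragments). Mr1, which presents microbial metabolites to MAIT cells, and Adam8, a leukocyte metalloprotease, both had single-copy members of fold 4.29 and −log10 q 3.62, from 10 fragments. Lair1, an inhibitory collagen receptor (fold 5.85, −log10 q 6.86), and Ulbp1, a ligand of NKG2D (fold 4.26, −log10 q 6.81), had copied summits. The guanylate-binding proteins Gbp4, Gbp8 and Gbp9 shared 1 member (fold 5.07, −log10 q 5.17, 413 bp wide), and Slfn5 had one 316 bp from a control peak. Pstpip2, an adaptor of the actin cytoskeleton in myeloid cells, had a control start peak elsewhere and its member (fold 4.73, −log10 q 4.72, 12 fragments) lay 44 bp from it.

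The study scored its cells with gene lists for activation, proliferation and a glucocorticoid signature, and with a list that it derived itself from fetal lung ILC2s of dexamethasone-treated mothers. None of 22 activation genes held a member, and 11 of them had a start peak in the asthmatic-mother list. Of 34 proliferation genes 1 held a member, Klf4 (2.94%). Klf4 and Fam110a held one among 66 genes linked to dexamethasone exposure (3.03%). Of 142 glucocorticoid signature genes whose symbols were found, Apoc2 and Trp53inp1 held one (1.41%). These shares stand beside 1.74% of all coding autosomal genes, and over genes with a start peak in the asthmatic-mother list they were 5.56%, 4.08% and 1.90% beside 4.04%. Each list held at most 2 such genes. At Klf4, a zinc finger factor that restrains proliferation in several tissues, the member (fold 3.59, −log10 q 3.05, 12 fragments) lay between control peaks of −log10 q 6.50 and 6.71, 183 bp from the nearer. Fam110a (fold 5.59, −log10 q 6.51) and Trp53inp1 (fold 4.65, −log10 q 4.86) lay 208 and 136 bp from a control peak. Apoc2, an apolipoprotein gene (fold 5.46, −log10 q 7.57), had no control start peak, but a control peak of another position lay 393 bp away.

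The other genes are given by role, in groups formed by hand after the names were seen, so the counts within a group describe the genes listed and nothing wider. Chromatin regulators with a member included Kmt2a, Kmt2c, Ezh2, Kdm4c, Ncor1, L3mbtl3, Baz1a, Hira, Bicra, Atxn7l3, Brms1, Nipbl and Cecr2. All of these 13 but Cecr2 had a shared start peak, and 9 of their 13 members were near a control peak. Ezh2, the H3K27 methyltransferase of PRC2, was one of the exceptions in distance, at 54117 bp, on the fully masked stretch printed above. Bicra, a subunit of a BAF-type remodeller, had the strongest of them, at fold 8.29 and −log10 q 13.2, on a wholly masked window 47652 bp from a control peak. Kmt2c (fold 4.66, −log10 q 5.39) and Ncor1 (fold 4.14, −log10 q 4.82) lay 136 and 253 bp from control peaks of −log10 q 11.7 and 12.3.

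In TGF-beta family signalling, 5 genes held a member, all within 1000 bp of a control peak. Acvr2b, an activin receptor, had fold 5.46 and −log10 q 6.00, with a control peak of 7.05 at 242 bp. Smad2, a receptor-activated SMAD, had the strongest (fold 6.51, −log10 q 9.22), 31 bp from a control peak of −log10 q 14.1. Smad7, the inhibitory SMAD, had fold 3.72 and −log10 q 5.39, at 739 bp. The corepressors Skil (fold 4.78, −log10 q 5.87) and Tgif1 (fold 4.09, −log10 q 5.18) lay 610 and 124 bp away. In each of the 5 the control peak had the higher −log10 q.

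Of 27 transcription factors, Klf4, Myf6 and Zic4 among them, 9 had a shared start peak, 11 a control start peak elsewhere and 7 none. Foxo3, a factor of quiescence and stress resistance, had fold 5.07 and −log10 q 7.81, 257 bp from a control peak of 858 bp width. Creb1 (fold 4.51, −log10 q 4.92) lay 1089 bp from a control peak of −log10 q 4.80, and Zfpm1, the GATA cofactor FOG1, had the stronger value of its pair (6.24 against 3.66) at 117 bp. The group also held Elf2, Nfia, Nfic, Zfhx3, Tfap2a, Tfap4, Tbx15, Foxd2, Camta1, Npas3, Glis3, Ikzf5, Zhx2, Plag1, Tfdp1, Nr3c2, Spdef and Arid3a. Nr3c2 encodes the mineralocorticoid receptor. The patterning factors Foxd3 (fold 5.07, −log10 q 5.17), Irx5 (fold 3.83, −log10 q 3.00) and Dlx4 (fold 6.60, −log10 q 8.65) had no control start peak, and Dlx4 alone of these lay on a tandem run.

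Kinases, phosphatases and small GTPases or their exchange factors included Src, Ptk2b, Pkn2, Mark2, Prkd3, Sos2, Slk, Pak6, Rac3, Rras, Ptpn18, Csnk1g3, Rap2a, Rab33b, Rab2b, Nek8 and Wnk2. None of these 17 summits was copied, 12 were near a control peak, and 11 were at genes with a shared start peak. Sos2 had the strongest of them, a 628-bp peak of fold 8.88, −log10 q 14.6 and 22 fragments at chr12:69681401-69682028, 181 bp from a control peak. The Src peak was among the weakest members, at fold 3.48, −log10 q 2.35 and 9 fragments, and lay 32384 bp from a control peak.

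Translation and RNA processing was represented by Rps2, Rps13, Rps27l, Mrpl40, Eif3b, Snrpd3, Exosc8, Pop7, Sugp2, Ppig and Tent4b. All 11 genes had a shared start peak, and 10 of the 11 members were near a control peak. Rps13 had fold 5.07 and −log10 q 5.17 at 230 bp from a control peak of −log10 q 16.8. Rps2 had fold 5.24 and −log10 q 7.80 on a summit with 18 copies. Of the sterol synthesis enzymes, Dhcr7, Sc5d and Lss held members at 1159, 144 and 384 bp from a control peak, and Dgat2, which makes triglyceride, at 139 bp. Their −log10 q values were 11.5 for Dhcr7, 5.86 for Sc5d, 4.38 for Lss and 5.70 for Dgat2, and the Dhcr7 window was wholly masked.

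Some genes known mainly from other tissues held a member, and the following were picked after their names and classes were seen. Lrrtm1, Kcnd3, Kcng3, Pde10a, Aplp1, Homer2 and Cabp1 of neurons, Tshb of the pituitary, Flg and Krtap5-3 of skin and hair, Nexn of muscle, Cpb2 of liver and Phospho1 of bone had no control start peak. Myl4 of muscle, Pcsk1 of endocrine cells, Dlgap3 of synapses and Impg2 of the retina had a shared start peak. Tshb, for example, had fold 5.85 and −log10 q 6.86 on a summit with 3029 copies. The cilia genes Dnah6, Ccdc40 and Bbs7 had no control start peak either, whereas Kif27 had one elsewhere.

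Of 1517 odorant, pheromone and taste receptor genes, 19 had a start peak in the asthmatic-mother list and 7 held a member. That is 0.461% of all these genes but 36.8% of the 19. They were Olfr1373, Olfr675, Olfr726, Olfr822, Olfr971, Vmn1r4 and Vmn1r7, and 5 of the 7 summits were copied. Zinc finger genes with a member were 6 of 452, or of 290 with a start peak in that list (Zbtb44, Zfp457, Zfp52, Zfp560, Zfp729b and Zfp740). Solute carriers and ion channels with a member were 12 of 598, or of 177 with a start peak, of which Clcn3, Clcn4, Slc25a36, Slc30a7, Slc41a2 and Slco5a1 had a shared start peak, Slc43a3 a control start peak elsewhere, and Ano3, Kcnd3, Kcng3, Slc27a6 and Slc35e4 none. Predicted or clone-named genes with a member were 24 of 1791, or of 351 with a start peak. Over all annotated genes the shares were 1.33% for zinc finger genes, 2.01% for solute carriers and ion channels and 1.34% for predicted genes, beside 1.74% of all coding genes. Over genes with a start peak in the asthmatic-mother list they were 2.07%, 6.78% and 6.84%, beside 4.04% (361 of 8942).

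In 7 cases a gene had more than 1 member. Hexdc had 3, all within 740 bp of a control peak, and AW822073, Duxf3, Gm10721, Gm17631, Pglyrp2 and Slc35e4 had 2 each. Those of AW822073 and Duxf3 lay in a cluster on chromosome 10 between 58223193 and 58232000, with 37 to 46 fragments over a background of 12.4 to 14.6. At the near end of chromosome 9, Gm11168 and Gm10721 had the only 3 members with a fold under 2. They had 286, 271 and 260 fragments over backgrounds of 178, 173 and 172, and the nearest control peaks had folds of 1.52, 1.53 and 1.55. The Slc35e4 pair (−log10 q 4.41 and 3.69) was single-copy, with CpG ratios of 0.918 and 0.690, 18270 and 18016 bp from a control peak.

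The remaining genes without a control start peak were Abcb1a, Ahnak2, Ap3m2, B3gat2, Chst12, Cyp2d22, Gstm4, Gstp2, Igsf23, Insyn1, Irgc1, Myrip, Npr2, Ppp1r42, Slc27a6, Tmcc2, Yjefn3 and Zfp52, with 4930412O13Rik, 4931408C20Rik, 4933421I07Rik, 9230102O04Rik, Gm11554, Gm12888, Gm3278 and Gm49027. Igsf23 (−log10 q 7.74), Gm11554 (7.96) and Cyp2d22 (6.86) were on tandem runs, and Abcb1a encodes the drug efflux pump P-glycoprotein. Genes with a control start peak elsewhere also included Alcam, Cadm1, Clic5, Dlk2, Dtwd2, Etfb, Galm, Gse1, Icam5, Maml2, Mtmr4, Napepld, Ndufa13, Nedd9, Ogfod3, Pawr, Pigl, Pigq, Pitpnm2, Pkm, Prune1, Tmem121b, Tnfaip8, Trnp1, Tssk6 and Zfp560, with 1810022K09Rik, A430078G23Rik and B430305J03Rik. Pkm encodes pyruvate kinase of glycolysis. The Tmem121b member was the second widest, at 708 bp.

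The strongest members at genes with a shared start peak, after Plekha2, were 1 peak at 3110070M22Rik and Tmem267 (fold 6.68, −log10 q 15.5), then Mettl27 (8.84, 15.0), Bicra, Dhcr7 (7.27, 11.5) and Ccm2 (6.69, 10.3). Gm11168 (10.0), R3hdm2 (10.0), Galnt10 (9.62) and Ttll11 (9.59) followed by −log10 q, with Psma1 and the peak shared by Orc6 and Vps35 tied with Ttll11. Ccm2, a scaffold of endothelial junctions, and R3hdm2 were the only 2 of these 10 with unmasked single-copy summits, and lay 281 and 221 bp from a control peak. The class also held the calcium pump Atp2b1, the chaperones Hspa5, Hspa14 and Hspa1b, the apoptosis regulators Diablo and Pdcd4, the adhesion receptors Adgre5 and Adgrl1, the adenylyl cyclases Adcy3 and Adcy6, the retromer subunit Vps35, the clathrin adaptor Picalm, the nuclear pore protein Tpr, the importin Kpna4, and the proteasome subunit Psma1. Hspa5, the ER chaperone BiP, had fold 5.26 and −log10 q 6.31 at 324 bp from a control peak of −log10 q 17.4. Further members of the class were at Abhd17c, Acadsb, Add1, Atp8a1, Atxn1, Atxn2, Bclaf1, Cpeb2, Cpm, Crtc3, Dpysl2, Fgfrl1, Galnt1, Gdi2, Glud1, Golm1, Gpbp1, Hdlbp, Idh2, Ip6k1, Lrig2, Mast3, Mgat1, Ncoa4, Noct, Orc6, Otud7b, Polr3g, Pomgnt1, Sbf2, Stambp, Tomm22, Tpm3, Trappc10, Ube2q1, Usp42, Zc3h4 and Zzz3. Others of the class were Alg5, Arhgap27, BC005537, Bbx, Bicdl1, Cdnf, D630036H23Rik, Dlgap4, Extl2, Fam107b, Fam169b, Fgfr1op2, Fhl4, Glcci1, Glt8d1, Gm14327, Gm17509, Gm20403, Gm45713, Gm45902, Gpr155, Gucd1, Ints13, Ispd, Klhl18, LTO1, Lipo3, Lrrc8c, Maco1, Mblac2, Mex3b, Mier3, Mpp7, Odr4, Oxr1, Paqr8, Reps1, Rhpn2, Sept2, Serpina3g, Shld2, Spcs1, Tdrd3, Thap1, Tmem170b, Tmem263, Tmem30a, Tox4, Trabd, Tram2, Ttc7 and Zbed4.

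Members occurred on every autosome. Their share of the start peaks ran from 1.90% on chromosome 16 (6 of 315, interval 0.702 to 4.10%) to 4.91% on chromosome 7 (35 of 713, 3.44 to 6.76%), and these intervals overlap. Around the limits of the rule, Add1, Ttc17 and Ulbp1 were just inside the distance, at 996, 993 and 990 bp, and peaks at Abcc12, Psma2 and Dhcr7 just outside, at 1007, 1009 and 1015 bp. For overlap, the members at Armc6 with Sugp2, at Otud7b and at Pawr were 2, 3 and 4 bp away from a control peak, while peaks at Pym1, Ahnak and Dll1 overlapped one by 2, 3 and 5 bp and were left out. The −log10 q of the 3 just inside were 3.62, 5.96 and 3.59, and of the 3 just outside 6.64, 6.13 and 2.70.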

How the data were processed

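H3K4me3 was profiled by native low-input ChIP-seq, with chromatin cut by micrococcal nuclease, in ILC2s of offspring of control mothers and of asthmatic mothers, 1 library per group. The authors trimmed reads with Trim Galore and Cutadapt, aligned them to GRCm38 (mm10) with Bowtie 2 and removed duplicates with Sambamba. Peak caller, control and threshold are not given in the sources used here, and the study's reporting summary says that peaks were not called on its ChIP-seq data, although peak lists were deposited. The deposited peak lists hold a score, which was 10 times the −log10 q rounded down in nearly all peaks, a fold (ratio) over background, and the −log10 of the p-value and of the q-value at each summit. Depth is unknown from these files. Members and gene lists were chosen with earlier results of these data known. Overlap meant 1 shared bp, and starts were those of GENCODE vM21 protein-coding transcripts. Fragments were solved from fold and p assuming a Poisson background, which matched all 335 members within 0.1%. Intervals are exact (Clopper-Pearson) for shares and from order statistics for medians, at 95%. Named genes were the 15 strongest members without a control start peak, the 10 strongest with a shared one, the 5 widest, all in the ILC2, cytokine, immune and study lists, those nearest the limits, and genes with several members. Others were named after their values were seen. Steps were tested on simulated data, in Python 3.11.15 with scipy 1.17.1. Some items are not reported here. In all, 11 alternatives were tried.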

Additional observations from a re-analysis of the deposited data

How the results depend on the processing

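The number of members, the number of genes without a control start peak and the share of start peaks were recomputed under 11 alternatives. With a distance of 500 bp the share was 2.61%. With 2000 bp there were 513 members, 189 genes and 5.06%. The 5′ end of each gene alone gave 2.97%. Requiring a −log10 q of at least 5 in the asthmatic-mother list gave 208 members, 70 genes and 2.53%. Requiring an overlap of 50% of the peak gave 509 members and 5.24%, and counting a control peak within 1000 bp as shared gave 140 members and 1.44%. Single-copy summits alone gave 2.73%. Keeping the 10000 peaks of highest −log10 p in each list gave 189 members, 174 genes and 10.6%, and most of these 189 peaks were not among the 335. Of these 3 values, the rest stayed within 1.5 times the main count or inside the interval of the main share. Basic transcripts and summit distance were added after seeing the data. Of 44 other values, 21 left the interval of the main one, and the median CpG ratio ran from 0.466 to 0.820. The cause was not tested. No paired analysis was possible because each group had a single library, and no replicate could be left out. A start peak missing from the control list may be signal under its threshold, which the lists do not show.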

Other observations

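The sex chromosomes were left out of the rule. There, 29 of 130 start peaks of the asthmatic-mother list overlapped no control peak, which is 22.3% (15.5 to 30.4%) beside 3.45% on the autosomes. They were 23 of 124 on X and all 6 on Y. The asthmatic-mother list held 3647 peaks on X and 849 on Y, and the control list 2816 and 524. The sex of the animals was not in the labels, and its part was not tested.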
